A study of Rattus norvegicus with 4 samples.

Results

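Microglia are the resident macrophages of the brain. They carry receptors that sense growth factors, antibodies, lipids and microbial products, they engulf debris, and they make C1q, the protein that starts the classical complement pathway. Many of their receptors have no signalling tail of their own and work through adaptor proteins such as TYROBP, which pairs with the lipid receptor TREM2. Cultures of newborn cortical astrocytes often hold some microglia, so genes of this lineage serve as a measure of what else a culture contains. A list of 46 microglial and myeloid genes was followed through cultures of different kinds. These were astrocytes kept alone, neuron-astrocyte co-cultures, and such co-cultures after most of their neurons had been washed off. A non-control probe of the array was taken when its gene name, or the RefSeq transcript it was designed to, was that of a listed gene. Probes were found for 41 of the 46 genes, 53 probes in all, among 35730 genes on the array. No probe matched Fcer1g, Ptprc, Cd53, Msr1 or Irf8.

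The study asked which astrocyte genes respond to neurons and how well neuronal RNA is removed by cold jet, a brief stream of ice-cold saline pipetted over the well that detaches neurons. Rat astrocytes came from the cortex of Wistar pups at P1, and neurons came from the hippocampus of mouse embryos at E18, so rat probes here can also read mouse mRNA, and the species behind a signal was not tested. The RNA groups were compared on 4 arrays that read a pair of dyes each: co-cultures without cold jet (CC), co-cultures after cold jet (CC-CJ), and astrocytes grown alone and also given cold jet (AA-CJ). Each of 2 arrays paired CC-CJ with AA-CJ and each of 2 arrays paired CC-CJ with CC, the 2 arrays of a kind being biological replicates from separate pools of animals. CC-CJ always carried the dye Cy3 and the other group always carried Cy5, with no dye swap. Whether the 4 CC-CJ channels held 2 or 4 RNA extracts is not stated in the sources used here. The third comparison, CC versus AA-CJ, was obtained as the difference of the others, with both groups in Cy5, but AA-CJ had received cold jet and CC had not. The study judged astrocyte purity by staining for GFAP and S100b against a count of all nuclei. Depending on the array and channel, 50.1% to 62.6% of probes exceeded background clearly.

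A level is given here as log2 of the normalised signal, for which empty probes lie near 6, and levels of different probes cannot be compared with each other. A difference is the log2 ratio within an array, averaged over a gene's probes and the 2 arrays, with the standard error (SE) from limma. Adjusted p-values are Benjamini-Hochberg values over 21365 genes tested, and a gene was said to rise or fall where that value was under 0.05. In cultures, fewer cells of a type and less RNA per cell cannot be told apart.

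PU.1, the product of Spi1, is the best known regulator of myeloid genes and binds purine-rich sites built on GAGGAA. The stretch of DNA just before the start site is shown for Laptm5, Trem2, C1qb and Lyz2. They were picked from the genes that moved in these data because this string, on either strand, lies in that stretch. Of the others that moved, C1qa, Coro1a and Spp1 had no match in the 250 bases before the start, and Aif1 and Tyrobp had no promoter entry. The 100 bases before the annotated start are given 5′ to 3′ on the gene's strand from RefSeq on build GRCr8, with GAGGAA or its reverse complement in capitals. The stretches lie at chr5:148371780-148371879 on the plus strand for Laptm5, and on the minus strand at chr9:20151780-20151879 for Trem2, chr5:154407828-154407927 for C1qb and chr7:54798012-54798111 for Lyz2.
Laptm5: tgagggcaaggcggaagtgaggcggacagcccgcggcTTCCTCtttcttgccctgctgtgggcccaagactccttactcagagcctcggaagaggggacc
Trem2: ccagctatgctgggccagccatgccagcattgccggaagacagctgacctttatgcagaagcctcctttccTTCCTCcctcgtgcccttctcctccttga
C1qb: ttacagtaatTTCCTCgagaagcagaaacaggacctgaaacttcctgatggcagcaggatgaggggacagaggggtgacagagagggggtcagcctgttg
Lyz2: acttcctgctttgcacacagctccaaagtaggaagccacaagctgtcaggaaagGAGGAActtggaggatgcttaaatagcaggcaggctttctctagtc

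Over the 250 bases before the start, on both strands, GAGGAA was found for 18 of the 28 listed genes that have a promoter entry, and for 23.2% of 27457 promoters of all genes. It was found in 4 of 7 promoters of the genes that were higher in CC than in AA-CJ, in 6 of 9 of the other genes tested and in 6 of 9 of the genes too dim to test. The share with these letters was thus no higher among the promoters of the genes that moved. Of 4 further motifs that were searched, GAGGAAGT, which contains the first, was found in 3 of the 28 promoters and 2.04% of all. The form with AAA before GAGGAA and G after it was found in 2 and 0.393%, TGACTCA in 2 and 3.98%, and CACGTG in 0 and 5.79%. A match is a string of letters and not a measured binding site.

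In astrocytes alone, 17 of the 41 genes were well above background on both AA-CJ arrays, against 53.9% of all genes on the array. In CC the number was 24, against 59.1% of all genes on both arrays. All 4 CC-CJ channels showed 19 of the genes, against 47.4% of all genes. All 17 genes seen in AA-CJ were also seen in CC. They were the complement genes C1qb and C1qc, the receptors Fcgr3, Cd14, Tlr2, Tlr4 and Cd48, the adaptor Tyrobp, the signalling and cytoskeletal genes Arhgdib, Coro1a, Laptm5 and Lyn, the lysosomal genes Cd68 and Gpnmb, the oxidase subunit Cyba, the class II invariant chain Cd74, and the secreted protein Spp1. Another 6 genes were well above background on both CC arrays and on neither AA-CJ array: C1qa, Aif1, Trem2, Lyz2, Slc11a1 and Alox5ap, against 2.81% of all genes. The levels of Slc11a1 (mean 6.30 in AA-CJ and 6.31 in CC) and Alox5ap (6.24 and 6.35) hardly differed. A further 13 genes were well above background on no array: Cd4, Cx3cr1, Itgam, Itgb2, Fcgr2b, Cd37, Lcp2, Plek, Mrc1, Il1b, Tnf, Cybb and Ncf1.

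Some genes that define microglia were at or near background in every culture. Cx3cr1, the fractalkine receptor, lay at 6.07 and 5.97 in AA-CJ, between 5.93 and 6.07 in CC-CJ, and at 6.09 and 6.06 in CC. Itgam, the CD11b chain of complement receptor 3, lay at 6.09 and 5.85 in AA-CJ, between 5.77 and 5.95 in CC-CJ, and at 5.91 and 5.85 in CC. Spi1, which encodes PU.1, lay at 6.14 and 6.38 in AA-CJ, between 6.05 and 6.33 in CC-CJ, and at 6.21 on both CC arrays, and was well above background on 1 AA-CJ array and on no other. None of the 3 had a group that stood apart. The 17 genes too dim to test, these 3 among them, had levels between 5.74 and 6.61 in all channels. Besides the 13 above they were Rac2 and Spi1, detected on 1 AA-CJ array, Lcp1, detected on 1 array of CC and 1 of CC-CJ, and Vav1, detected on 1 array of CC-CJ.

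The remaining 24 genes were tested. A gene entered the test when, in 1 or more of the groups, all arrays read one of its probes well above background. C1qa, Trem2 and Lyz2 entered through CC and CC-CJ but not through AA-CJ. Aif1, Slc11a1, Alox5ap and Csf1r entered only through CC. Counts over the tested genes thus lean towards CC and CC-CJ, and away from AA-CJ, by construction. The list was also chosen with earlier results of these data known, so counts beside those of all genes are a description without a test. Of the 24, 9 were higher in CC than in AA-CJ and 0 lower, against 2.58% higher and 0.0796% lower among all genes tested. The same 9 fell in CC-CJ versus CC, and 0 were higher, against 2.26% lower and 0.0983% higher. In CC-CJ versus AA-CJ, 6 of them were higher and 0 lower, against 1.94% and 1.16%. The median difference over the 24 genes was 0.19 in CC versus AA-CJ, −0.16 in CC-CJ versus CC and 0.08 in CC-CJ versus AA-CJ, where the medians of all genes tested were 0.002, −0.024 and −0.016. The 3 comparisons share channels, so their calls are not independent of each other. In each of the 9 genes, both CC levels lay above all 4 CC-CJ levels and all 4 CC-CJ levels lay above both AA-CJ levels. The 9 were chosen for CC above AA-CJ, so that part of the order follows from the choice. CC-CJ differs in dye from the other groups, and its step above AA-CJ was not called for Aif1, C1qb and Coro1a.

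**Figure D1:**
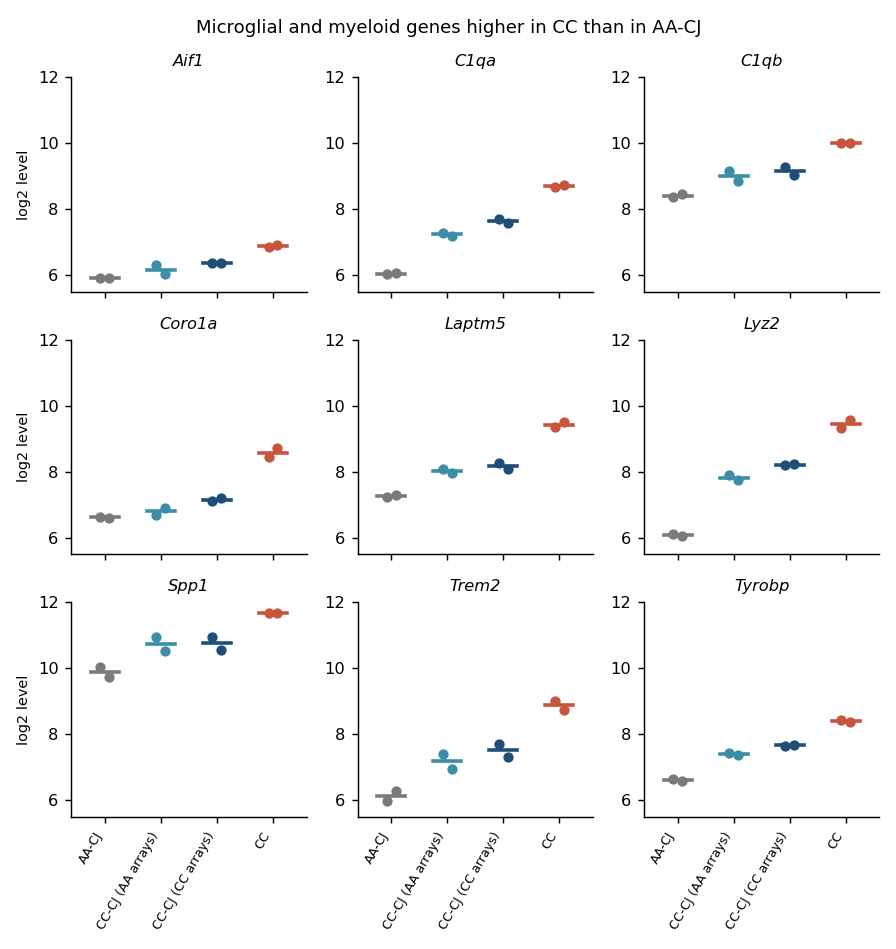
Log2 level (vertical axis) of the 9 genes higher in CC than in AA-CJ, 1 panel per gene. Points are single arrays, bars their means over 2 arrays, with CC-CJ drawn separately for the arrays it shared with AA-CJ and with CC. In each panel CC is above CC-CJ and CC-CJ is above AA-CJ, though the difference of CC-CJ from AA-CJ was not called for Aif1, C1qb and Coro1a.

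C1qa and C1qb came with the co-culture, and no such change was seen for C1qc, which lay near background. C1qa, measured by 2 probes, lay at 6.04 and 6.08 in AA-CJ, at 7.29 and 7.21 in CC-CJ on the same arrays, at 7.69 and 7.60 in CC-CJ on the CC arrays, and at 8.67 and 8.74 in CC. Its difference was 1.19 in CC-CJ versus AA-CJ (SE 0.087, adjusted p = 0.00258), −1.06 in CC-CJ versus CC (SE 0.087, adjusted p = 0.00162) and 2.25 in CC versus AA-CJ (SE 0.124, adjusted p = 0.000354). By channel levels, C1qa in CC was 6.08-fold that in AA-CJ, both in Cy5, and in CC-CJ 2.21-fold. AA-CJ was not above background, so its level was raised, where lower, to the lowest of any probe well above background on that array. Other probes with higher levels were still not above background, so these folds are not lower bounds. They compare channel levels directly and can exceed the fitted differences, which pass through CC-CJ. The C1qa probes gave 2.62 and 1.89 for CC versus AA-CJ, so they moved in the same direction.

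C1qb was already present in astrocytes alone, at 8.36 and 8.47. It lay at 9.15 and 8.86 in CC-CJ on those arrays, 9.28 and 9.04 in CC-CJ on the CC arrays, and 10.01 and 9.99 in CC. It fell by 0.84 in CC-CJ versus CC (SE 0.116, adjusted p = 0.0152) and was 1.43 higher in CC than in AA-CJ (SE 0.164, adjusted p = 0.00722). The difference of 0.59 between CC-CJ and AA-CJ was not called (SE 0.116, adjusted p = 0.051), with array values of 0.78 and 0.39. C1qc, the third chain, stayed near background: it lay at 6.51 and 6.49 in AA-CJ, between 6.34 and 6.55 in CC-CJ, and at 6.39 and 6.68 for the CC arrays. Its difference in CC versus AA-CJ was 0.13 (95% interval −0.16 to 0.42). A second C1qc probe was above background on no array, so a change in C1qc could have been missed. C1qa, C1qb and C1qc are neighbours on chromosome 5, where their probes lie within 155647536 to 155662826 on rn4, and the 3 chains form 1 protein.

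TREM2 and its adaptor TYROBP moved together. Trem2 lay at 5.99 and 6.28 in AA-CJ, 7.41 and 6.95 in CC-CJ on those arrays, 7.72 and 7.31 in CC-CJ on the CC arrays, and 9.02 and 8.73 in CC. Its difference was 1.04 in CC-CJ versus AA-CJ (SE 0.166, adjusted p = 0.031), −1.36 in CC-CJ versus CC (SE 0.166, adjusted p = 0.00891) and 2.404 in CC versus AA-CJ (SE 0.235, adjusted p = 0.00346). By channel levels, treated as for C1qa, CC was 6.58-fold AA-CJ, where Trem2 was not above background. The 2 CC-CJ versus AA-CJ arrays gave unlike values, 1.42 and 0.67.

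Tyrobp lay at 6.65 and 6.60 in AA-CJ, 7.43 and 7.36 in CC-CJ on those arrays, 7.65 and 7.67 in CC-CJ on the CC arrays, and 8.43 and 8.38 in CC. Its difference was 0.77 in CC-CJ versus AA-CJ (SE 0.079, adjusted p = 0.00955), −0.74 in CC-CJ versus CC (SE 0.079, adjusted p = 0.00545) and 1.51 in CC versus AA-CJ (SE 0.112, adjusted p = 0.00108). A second Tyrobp probe, designed to an expressed sequence tag, was not above background on any array and gave 0.08 for CC versus AA-CJ. Fcgr3, a low-affinity antibody receptor, was above background in all groups and did not pass in any comparison, with differences from −0.14 to 0.16. One of its 3 probes is assigned to Fcgr2a in current RefSeq, so its reading is uncertain.

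Lyz2 encodes the phagocyte lysozyme and, like C1qa and Trem2, was not above background in AA-CJ. It lay at 6.13 and 6.06 in AA-CJ, 7.89 and 7.75 in CC-CJ on those arrays, 8.21 and 8.22 in CC-CJ on the CC arrays, and 9.33 and 9.57 in CC. The difference was 2.96 in CC versus AA-CJ (SE 0.127, adjusted p = 0.000165), 1.73 in CC-CJ versus AA-CJ (SE 0.09, adjusted p = 0.000736) and −1.23 in CC-CJ versus CC (SE 0.09, adjusted p = 0.000909). By channel levels, treated as for C1qa, CC was 9.84-fold and CC-CJ 3.18-fold the level in AA-CJ. The file names the probe Lyz, and a closely related lysozyme gene could share its signal.

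Laptm5 and Coro1a, genes of blood cells, both fell with cold jet. Laptm5, a lysosomal membrane protein of blood cells, lay at 7.25 and 7.30 in AA-CJ, 8.10 and 7.95 in CC-CJ on those arrays, 8.27 and 8.10 in CC-CJ on the CC arrays, and 9.34 and 9.51 in CC. Its difference was 0.75 in CC-CJ versus AA-CJ (SE 0.109, adjusted p = 0.0258), −1.24 in CC-CJ versus CC (SE 0.109, adjusted p = 0.00217) and 1.99 in CC versus AA-CJ (SE 0.154, adjusted p = 0.00129). Coro1a encodes an actin-binding protein of leukocytes that neurons also make. It lay at 6.65 and 6.60 in AA-CJ, 6.69 and 6.91 in CC-CJ on those arrays, 7.12 and 7.20 in CC-CJ on the CC arrays, and 8.44 and 8.72 in CC. It fell by 1.42 in CC-CJ versus CC (SE 0.102, adjusted p = 0.000836) and was 1.60 higher in CC than in AA-CJ (SE 0.144, adjusted p = 0.00239). In CC-CJ versus AA-CJ its difference of 0.18 was not called (SE 0.102, adjusted p = 0.356).

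Spp1, which encodes the secreted phosphoprotein osteopontin, was bright in all groups. It lay at 10.03 and 9.72 in AA-CJ, 10.95 and 10.51 in CC-CJ on those arrays, 10.95 and 10.56 in CC-CJ on the CC arrays, and 11.68 and 11.66 in CC. Its difference was 0.86 in CC-CJ versus AA-CJ (SE 0.11, adjusted p = 0.0184), although median centring of the arrays, without loess, gave −0.28. It fell by 0.91 in CC-CJ versus CC (SE 0.11, adjusted p = 0.00854) and was 1.77 higher in CC than in AA-CJ (SE 0.155, adjusted p = 0.00213). Spp1 is not limited to myeloid cells.

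Aif1, the gene of the microglial marker IBA1, stayed near background outside CC. It lay at 5.92 and 5.93 in AA-CJ, 6.30 and 6.04 in CC-CJ on those arrays, 6.37 and 6.36 in CC-CJ on the CC arrays, and 6.87 and 6.93 in CC. It fell by 0.53 in CC-CJ versus CC (SE 0.096, adjusted p = 0.0436) and was 0.78 higher in CC than in AA-CJ (SE 0.135, adjusted p = 0.0377). Taken from the channel levels, treated as for C1qa, CC was 1.75-fold AA-CJ. Both calls were lost when CC-CJ versus CC replicate 1 or replicate 2 was left out, and the second also without CC-CJ versus AA-CJ replicate 1. In CC-CJ versus AA-CJ its difference was 0.25 (SE 0.096, adjusted p = 0.191).

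Csf1r, the receptor for the growth factor on which microglia depend, did not pass in any comparison. Averaged over its 2 kept probes it lay at 6.25 and 6.28 in AA-CJ, between 6.32 and 6.51 in CC-CJ, and at 6.65 and 6.69 in CC. Its difference was 0.26 in CC versus AA-CJ (95% interval −0.01 to 0.54, adjusted p = 0.299) and −0.20 in CC-CJ versus CC (95% interval −0.39 to −0.004, adjusted p = 0.29). The probes disagreed: one gave 0.59 and the other −0.07 for CC versus AA-CJ. With the brighter probe alone, Csf1r was called in both comparisons.

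**Figure D2:**
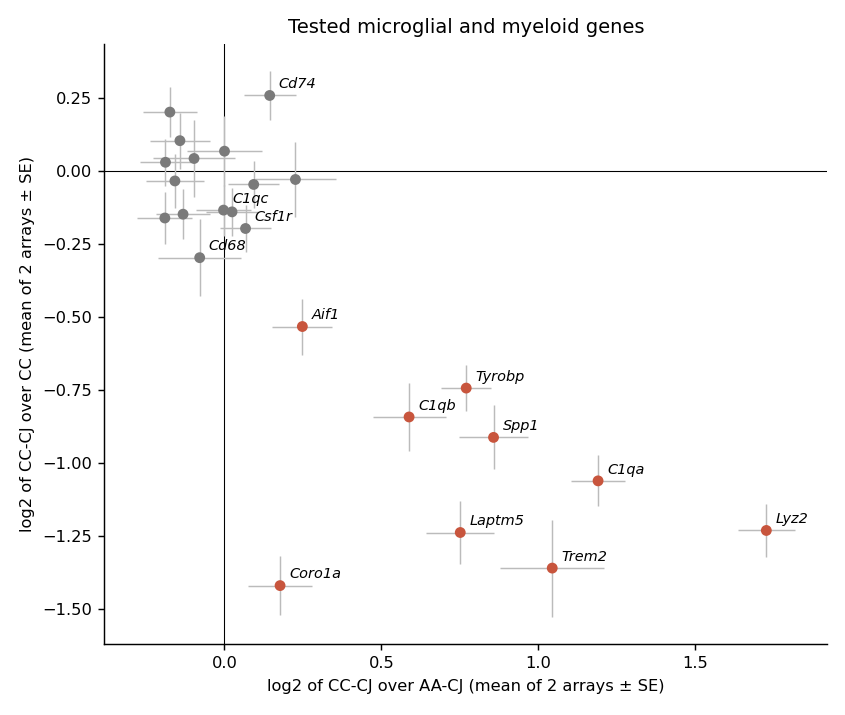
Difference in CC-CJ versus AA-CJ (horizontal axis, log2) against that in CC-CJ versus CC (vertical axis, log2) for the 24 genes tested, each point the mean of 2 arrays with SE. The 9 genes higher in CC than in AA-CJ (red) sit at the lower right, from Coro1a at 0.18 and −1.42 to Lyz2 at 1.73 and −1.23, and the other 15 (grey) lie near 0 on both axes.

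Another 12 genes were well above background in astrocytes alone and did not pass in any comparison. Their differences ran from −0.19 to 0.23 in CC-CJ versus AA-CJ, from −0.30 to 0.26 in CC-CJ versus CC and from −0.38 to 0.26 in CC versus AA-CJ, with lowest adjusted p-values of 0.23, 0.198 and 0.189. Cd68, a lysosomal protein used to mark phagocytes, lay at 7.46 and 8.06 in AA-CJ, between 7.52 and 7.71 in CC-CJ, and at 7.998 and 7.81 in CC. Its AA-CJ replicates spanned the CC levels, and its CC versus AA-CJ difference was 0.22 (95% interval −0.23 to 0.66). Cyba, the p22phox subunit of the phagocyte oxidase that many other cells also make, differed by −0.25 in CC versus AA-CJ (95% interval −0.57 to 0.08), while its partners Cybb and Ncf1 were at background. The pattern receptors Cd14, Tlr2 and Tlr4 had differences of −0.22, −0.38 and −0.12 in CC versus AA-CJ, all below 0 and none called. Slc11a1, a metal transporter of phagosomes, and Alox5ap, needed for leukotriene synthesis, did not pass in any comparison, with CC versus AA-CJ differences of 0.02 and 0.14.

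**Figure D3:**
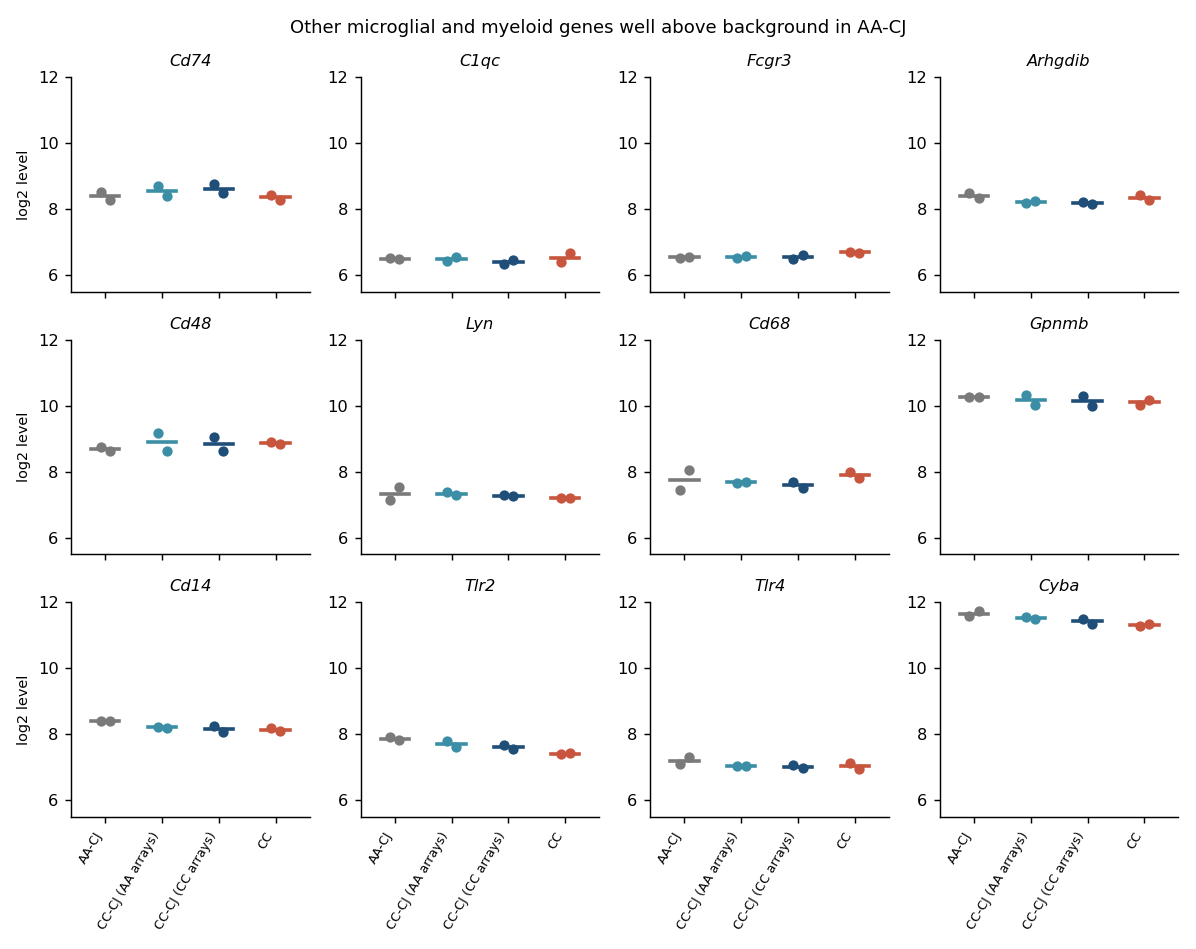
Log2 level (vertical axis) of the 12 genes that were well above background in AA-CJ and passed in no comparison, 1 panel per gene. Points are single arrays and bars their means over 2 arrays. The fitted CC versus AA-CJ difference farthest from 0 is that of Tlr2, −0.38, and the Cd68 points in AA-CJ, at 7.46 and 8.06, are the widest apart.

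How much of each gene stayed after cold jet was described for the 8 genes at least 2-fold higher in CC than in AA-CJ, as the excess of CC-CJ over AA-CJ in percent of the excess of CC over AA-CJ, on linear levels. Each value combined a CC array with the AA-CJ array of the same number, a match by label only. The mean over the 8 genes was 32.0% ± 5.2 (SD, n = 2 pairs of arrays). The share was 43.2% for Tyrobp, 38.1% for C1qa, 36.5% for Lyz2, 35.0% for Spp1, 33.7% for C1qb, 27.8% for Trem2, 26.0% for Laptm5 and 15.6% for Coro1a. For 7 neuronal genes chosen by the same 2-fold rule the mean was 9.61% ± 0.623 (SD, n = 2 pairs of arrays), from 4.91% for Dcx to 13.9% for Tubb3. With CC-CJ taken from the arrays it shared with AA-CJ, the means were 22.5% for the 8 genes and 3.58% for the neuronal genes. The order of the genes then changed: Spp1 had 33.8%, Tyrobp 29.0%, Lyz2 25.3%, C1qb 25.2%, C1qa 24.4%, Laptm5 20.2%, Trem2 18.3% and Coro1a 4.19%. For Coro1a the pairs of arrays gave 1.29% and 7.09%. These percentages are a description without a test. CC-CJ and the groups it is set against differ in dye, and CC-CJ itself read 0.03 to 0.40 higher on the CC arrays than on the AA-CJ arrays for the 9 genes.

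**Figure D4:**
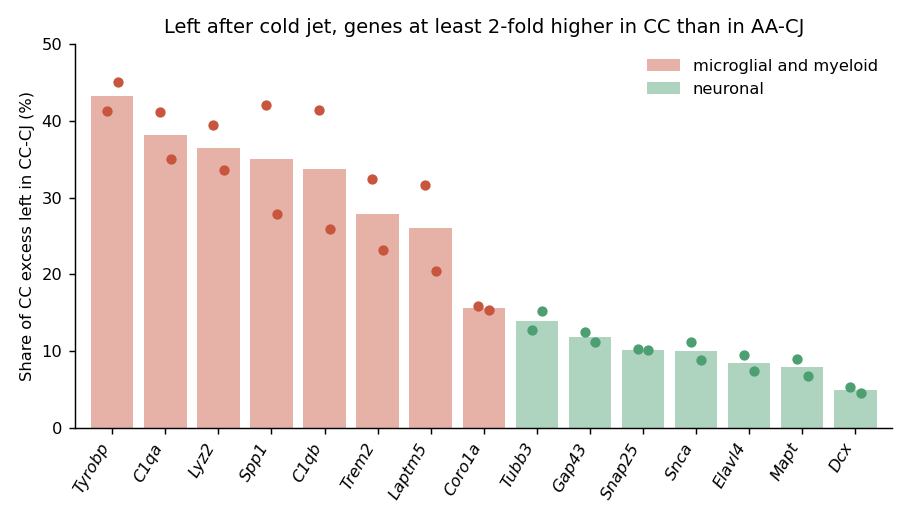
Share of the CC excess over AA-CJ that was left in CC-CJ (vertical axis, percent) for 8 microglial and myeloid genes and 7 neuronal genes. Bars are means of the 2 points, and each point combines a CC array with the AA-CJ array of the same number. Levels are after loess, on which the shares depend. The myeloid genes run from 43.2% for Tyrobp to 15.6% for Coro1a, and the neuronal genes from 13.9% for Tubb3 to 4.91% for Dcx.

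Of 57 other microglial and myeloid genes listed, 44 had probes and 20 were tested. Adgre1, a macrophage surface receptor, and Ctss, a lysosomal protease of antigen-presenting cells, were higher in CC than in AA-CJ by 0.73 (adjusted p = 0.0238) and 0.94 (adjusted p = 0.0111) and fell in CC-CJ versus CC, at −0.46 (adjusted p = 0.0363) and −0.64 (adjusted p = 0.0122). None of the 20 was called in CC-CJ versus AA-CJ, and the other 18 passed in no comparison. Of 11 ligands and partners of these receptors, Apoe, a lipid carrier that TREM2 binds, had a difference of 0.90 in CC-CJ versus AA-CJ (adjusted p = 0.00955), 0.83 in CC versus AA-CJ (adjusted p = 0.0272) and 0.08 in CC-CJ versus CC (adjusted p = 0.719). Apoe was very bright, at 16.01 and 16.02 in AA-CJ, and whether its spots were saturated was not examined. Cd200, a neuronal surface protein that restrains myeloid cells, fell by 0.53 in CC-CJ versus CC (adjusted p = 0.0254). None of 3 class II antigen presentation genes tested was called.

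Markers of other cells moved in the same comparisons, and their part in these results was not tested. Of 12 neuronal markers tested, 7 were higher in CC than in AA-CJ, among them Gap43 by 4.79 and Dcx by 4.57, 8 fell in CC-CJ versus CC, and 4 rose in CC-CJ versus AA-CJ. The summed linear level of the neuronal list, a sum that bright probes dominate, was 8926 and 9495 in AA-CJ, 8469 to 8872 in CC-CJ, and 19700 and 20600 in CC. Stmn2, which did not pass in any comparison, made up 84.8% and 85.3% of it in AA-CJ, and without Stmn2 the sum was 1356 and 1399 in AA-CJ, 2073 to 2590 in CC-CJ, and 13290 and 14800 in CC. Of 12 astrocyte markers, 1 was called, Aqp4, with a difference of 0.51 in CC-CJ versus AA-CJ, and the summed level was 36780 to 40860 in AA-CJ, 38880 to 41540 in CC-CJ and 38260 to 39960 in CC. Of 9 oligodendrocyte lineage genes tested, Mag and Sox10 fell in CC-CJ versus CC and Mag was higher in CC than in AA-CJ. Of 6 fibroblast and mural genes, Col1a2 and Dcn fell in CC-CJ versus CC and Dcn was higher in CC than in AA-CJ, and of 3 endothelial genes Kdr was higher in both CC and CC-CJ than in AA-CJ. The 1 lymphocyte and 1 granulocyte gene that could be tested were not called.

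Without CC-CJ versus AA-CJ replicate 1, the CC-CJ versus AA-CJ differences of the 6 called genes ran from 0.65 for Laptm5 to 1.69 for Lyz2. Without replicate 2 they ran from 0.78 for Tyrobp to 1.76 for Lyz2. Calls without replicate 1 became fewer, here and over all genes tested. Median centring without loess moved the median of all genes in that comparison to −0.485 and called 7 of the 24 genes higher and 10 lower, where it called 62.0% of all genes tested. Under it Laptm5 differed by 0.17 (adjusted p = 0.284) and was no longer called. In CC-CJ versus CC, the 9 called genes without CC-CJ versus CC replicate 2 had differences from −1.315 for Coro1a to −0.498 for Aif1. Calls again became fewer, here and over all genes tested. The scanner's own log ratio, in place of the normalisation used here, left 2 of those 9, Coro1a and Laptm5, with all differences of the called genes in the same direction.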

How the data were processed

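The scanner files were deposited as Agilent Feature Extraction (version 9.5.1.1) output, with spot intensity, background, flags and the scanner's own log10 ratio of Cy5 over Cy3. All 4 arrays share 1 slide and 1 scan time. The authors also deposited a table of processed values after their local normalisation, used here as a score: its direction is Cy5 over Cy3, but its scale is unknown (slopes of 1.81 to 2.33 on the scanner's log10 ratio, correlations of 0.865 to 0.923, column medians 0.0085, 0.0043, −0.025 and −0.014).

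Mean intensity was background-corrected (normexp, offset 50), normalised by loess (span 0.3) in limma 3.58.1 (R 4.3.3), and turned so that a ratio is CC-CJ over the partner. Channel levels were then scaled between arrays (Aquantile). Control spots and outlier flags (121 to 179 spots an array) were left out. Of 41012 probes, 24865 were kept, those that all arrays of 1 or more groups read well above background, and a gene's value is the mean over its kept probes. limma's moderated test (residual df 2, prior df 4.71) ran on all 4 arrays. It was run on simulated data with independent noise. Those data held no dye difference, shared RNA or background floor, so the run does not bear on these limits. With 2 arrays per comparison the spread between pools of animals is poorly known. Promoters came from RefSeq on GRCr8, searched with Python 3.11.15, and probe positions on rn4 from the files.

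The genes and lists were chosen with earlier results of these data known. Full values are given for listed genes with an adjusted p under 0.05 in any comparison and for the defining markers Aif1, Itgam, Cx3cr1, Csf1r, Tyrobp, Trem2, C1qa, C1qb, C1qc, Ptprc (no probe, so no value), Cd68 and Spi1, and at most 5 called genes with the lowest adjusted p are named from each other list. Alternatives covered background correction, normalisation, probe filter, probe choice, the deposited ratios, single arrays left out, replicate blocks and the criterion of the study.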

Additional observations from a re-analysis of the deposited data

How the results depend on the processing

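Of 364 values of called genes under the alternatives, 334 kept their direction and their side of the threshold, 29 kept their direction and lost the call, and 1 reversed (Spp1 in CC-CJ versus AA-CJ under median centring, −0.28). The counts of called genes were 6 in CC-CJ versus AA-CJ, 9 in CC-CJ versus CC and 9 in CC versus AA-CJ. Median centring called 17 in CC-CJ versus AA-CJ, 10 of them lower, and 18 in CC-CJ versus CC, all lower, where it called 62.0% and 67.1% of all genes tested and moved their medians to −0.485 and −0.59. The scanner's own log ratio called 3 and 3 in those comparisons and 6 in CC versus AA-CJ. Over all genes tested it called 0.36%, 1.28% and 1.17%. Keeping only probes well above background in all channels called 5 in CC-CJ versus CC and 5 in CC versus AA-CJ, since C1qa, Aif1, Trem2 and Lyz2 were then not tested. Leaving out single arrays gave 2 to 7, 6 to 9 and 8 to 9. The lowest were without CC-CJ versus AA-CJ replicate 1 (2, with Laptm5, Spp1, Trem2 and Tyrobp lost) and without CC-CJ versus CC replicate 2 (6, with Aif1, C1qb and Spp1 lost). Over all genes tested, calls ran from 77 to 13237 against 662, from 204 to 14335 against 504, and from 250 to 1160 against 568.

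The log2 ratios of same-numbered arrays of the 2 kinds did not deviate together (r = −0.112 across 21360 genes). The main fit did not take the numbers as pairs. A ratio also holds the partner channel, so this r cannot show whether the CC-CJ RNA was matched by number. CC-CJ levels followed the number for Spp1 (10.95 and 10.51 on the AA-CJ arrays, 10.95 and 10.56 on the CC arrays). For Tyrobp they did not (7.43 and 7.36, then 7.65 and 7.67). The shares left after cold jet did match arrays by number. With a replicate block the counts were 6, 8 and 8, with Aif1 lost, and with the crossed replicate block, an alternative chosen after seeing the data, 7, 9 and 9. Genes near background have understated differences.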
